A study of Mus musculus with 2 samples.

Results

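The transcription factors described are Twist1, Twist2, Prrx1, Prrx2, Alx4, Msx1, Msx2, En1, Meox1 and Meox2, 10 of the 27998 genes counted, taken by gene symbol. Single cells were profiled from the dermis of healing mouse wounds in 1 control library (SM22-rtTA, tetO-Cre, R26-Tomato) and 1 SM22-SmoM2 library (SM22-rtTA, tetO-Cre, R26-SmoM2/Tomato), so both libraries share the SM22-rtTA and tetO-Cre transgenes and the Tomato reporter, and differ in SmoM2, a form of the Hedgehog transducer Smoothened that signals without ligand. The promoter of SM22, the gene Tagln, drives rtTA, and doxycycline was given from day 1 after wounding to mice of 4 to 5 weeks. Tomato+ cells were sorted 3 days after complete re-epithelialization, from wounds of several mice pooled per library, so every comparison of genotypes is between 1 pool and 1 pool. There is no test of genotype, and the 95% intervals given with each value cover counting error only.

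Twist1 and Twist2 are basic helix-loop-helix proteins that pair with E proteins on E-box sequences and are known for their part in mesenchyme and in the dermis. Prrx1, Prrx2 and Alx4 are paired-class homeodomain factors of limb, craniofacial and body-wall mesenchyme. Msx1 and Msx2 are homeodomain repressors that respond to BMP signals, En1 marks a fibroblast lineage of the back dermis that lays down scar collagen, and Meox1 and Meox2 are mesenchyme homeobox factors first known from the somites. Ptch1, the Hedgehog receptor, is also a transcript that Hedgehog signalling raises, so Ptch1 molecules in a cell give a readout of the pathway.

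After cells with over 10% mitochondrial molecules were left out, 2856 control and 1792 SM22-SmoM2 cells remained, with a median of 8607.5 and 8837.5 unique molecular identifiers (UMIs) per cell. Markers placed 1090 control and 1098 SM22-SmoM2 cells in the fibroblast class, at a median of 12473 and 10947.5 UMIs, and all 9 fibroblast markers were above 10 CPM (UMIs of the gene per 1000000 UMIs of the class) in both libraries. Summed markers of other cell types in the fibroblasts ranged from 21.0 CPM (immune, control) to 69.4 CPM (endothelial, control). Ptch1 was at 12.2 CPM in the control and 147 CPM in the SM22-SmoM2 fibroblasts, and Gli1, another Hedgehog target, at 6.02 and 33.2 CPM. Tagln was at 140 and 201 CPM. Barcodes shared between the libraries could not be counted, because the barcode list does not name the cells of each library.

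The 10 factors together made up 805 CPM of control fibroblasts and 854 CPM of SM22-SmoM2 fibroblasts, and 16.4% and 15.4% of the cells held none of the 10 after thinning to 2500 UMIs. The label "dermal" fitted the fibroblast class for only part of the family. Twist2 (95.7% of its control UMIs), Prrx2 (96.5%), Twist1 (81.7%) and En1 (80.6%) lay mostly in fibroblasts, which held 46.9% of all control UMIs. Meox1 was instead mostly endothelial: the endothelial class held 75.7% of its control UMIs and 77.3% of its SM22-SmoM2 UMIs, at 183 and 170 CPM. Meox2 was also highest there, at 160 and 113 CPM (log2 ratio of SM22-SmoM2 to control -0.50, interval -0.69 to -0.31), with muscle cells at 122 and 110 CPM.

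Prrx1 was the most abundant of the 10 in fibroblasts, yet its highest level by class was in the muscle cells (smooth muscle and pericyte markers), at 594 CPM in the control and 400 CPM in the SM22-SmoM2 cells. UMIs count molecules at the 3′ end and are not divided by transcript length, so levels of different genes are compared here in UMIs only. Schwann cells held little of any member, with a sum of 45.7 and 58.5 CPM against 433 and 387 CPM in endothelial cells. The share of fibroblasts with an En1 UMI after thinning to 2500 UMIs was 14.7% and 22.3%, against 0.442% and 0.68% of Schwann cells, whose median depth before thinning was 5959.5 and 5545.5 UMIs. Muscle cells were closer, at 12.1% and 16.0%. Their En1 level was 50.2 CPM in the control, against 53.4 CPM in control fibroblasts, with overlapping intervals. Within the endothelial class the members were uneven. In cluster 14 Prrx1 reached 186 CPM in control and Twist1 68.7 CPM, whereas in cluster 8 Prrx1 was at 6.2 CPM in control and Meox1 at 247 CPM. The sum of the 9 fibroblast markers over the whole endothelial class was 1590 CPM in the control and 1612 CPM in the SM22-SmoM2 cells, and that of the muscle markers 874 and 1125 CPM, against 10373 and 9966 CPM in the muscle class. The endothelial sums are for the whole class and were not taken for cluster 14. The part of other cells' RNA in the levels of that cluster and in the low values elsewhere was not tested.

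**Figure D1:**
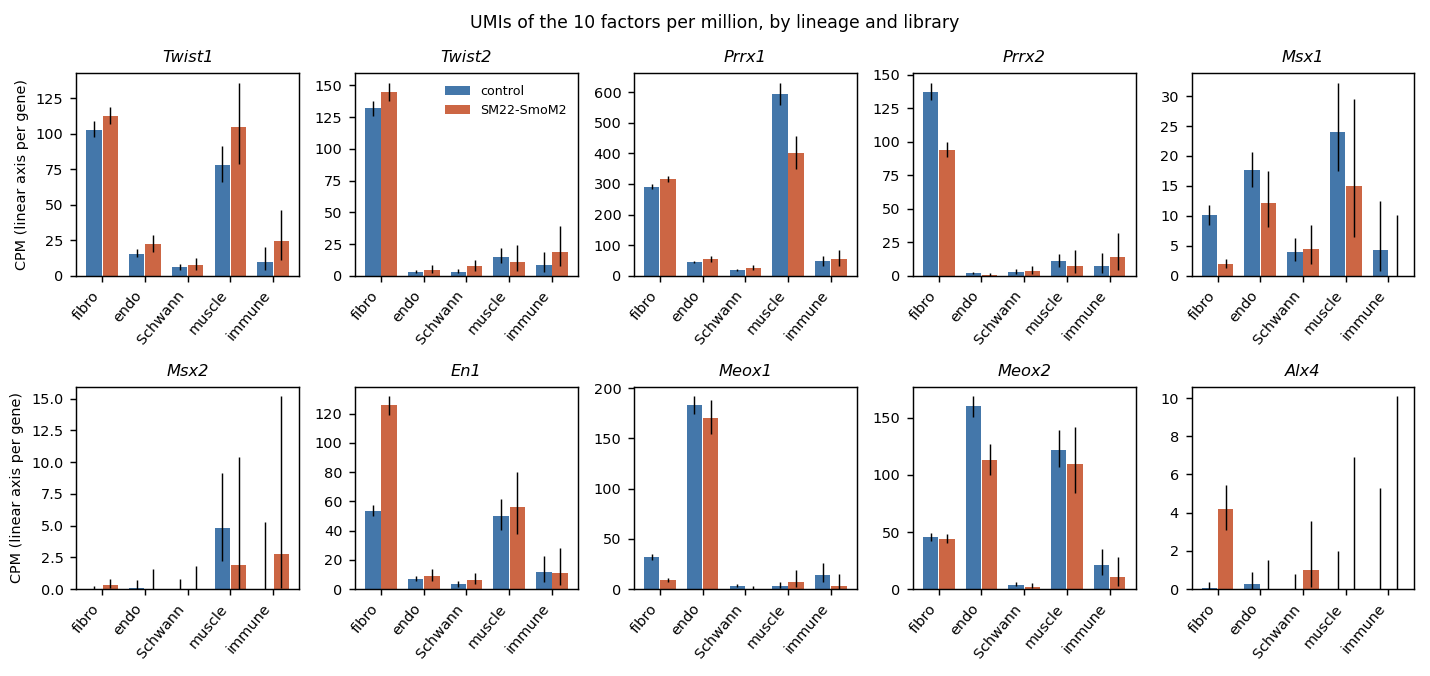
Level of each factor in CPM (one linear axis per gene starting at 0) in 5 cell classes of the control (blue) and SM22-SmoM2 (orange) libraries, with 95% counting intervals as lines. En1 differs between libraries in fibroblasts (53.4 and 126 CPM) while Meox1 and Meox2 are highest in endothelial cells and Prrx1 in muscle cells.

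Between the libraries, fibroblasts of SM22-SmoM2 wounds had more En1 and Alx4 and less Msx1 and Meox1, and the abundant Twist and Prrx1 transcripts were at close levels. Of the 9 members with at least 50 UMIs over both groups, 2 were at least 1.5-fold higher, where 11.8% of all 11523 genes counted were. Likewise 2 were at least 1.5-fold lower, where 12.3% of all genes were. Alx4, 1 of the 2 higher members, reached the minimum of 50 only through its 52 SM22-SmoM2 UMIs, with 1 in control. Once counted, it had to be called higher. Msx2 had too few UMIs to be counted. The median log2 ratio was 0.12 over the members and -0.06 over all genes.

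**Figure D2:**
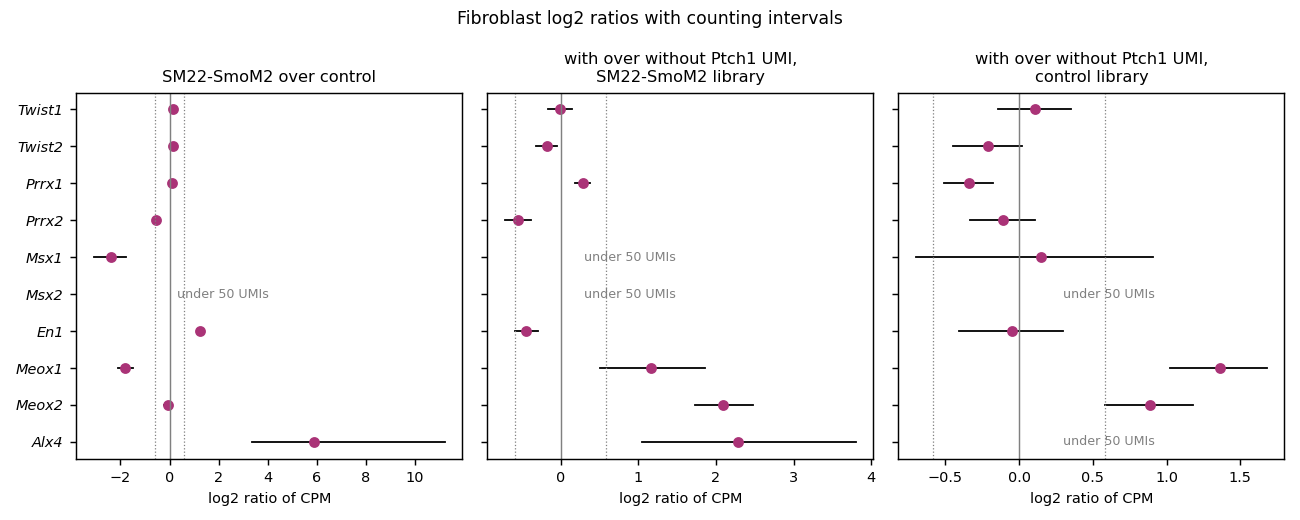
Log2 ratio of CPM in fibroblasts for each factor (points) with 95% counting intervals (lines), on a separate x axis for each of 3 comparisons. Dotted lines mark 1.5-fold. Alx4 (5.88) and En1 (1.23) lie to the right and Msx1 (-2.39) and Meox1 (-1.80) to the left between libraries, and Meox1 and Meox2 lie to the right in both splits by Ptch1.

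Twist1 is annotated at chr12:33957671-33959829 (GRCm38, plus strand) and Twist2 at chr1:91801461-91848028 (plus strand). Twist1 was at 103 CPM (98.0 to 109) in the control and 113 CPM (107 to 119) in the SM22-SmoM2 fibroblasts. Twist2 was at 132 CPM (126 to 138) and 145 CPM (138 to 152). The log2 ratio was 0.13 for either gene. That near-equality of Twist2 held over all fibroblasts but not in 3 of the 4 sub-clusters to which both libraries gave 30 cells or more. With fibroblasts clustered again without the 10 factors, Twist2 was lower in SM22-SmoM2 cells of sub-cluster 1 (299 CPM in control, 201 CPM in SM22-SmoM2, log2 ratio -0.58, -0.77 to -0.39). This sub-cluster was led by Crabp1, a retinoic acid binding protein, and Igfbp2. Twist2 was also lower in sub-cluster 2, led by the metalloproteinase Mmp3 (83.0 and 49.4 CPM, -0.75, -1.16 to -0.35), and in the cycling sub-cluster 8 (345 and 226 CPM, -0.61, -0.90 to -0.32). In sub-cluster 4 it was at 22.9 and 21.6 CPM (-0.09, -1.19 to 1.21).

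The highest Twist2 level of all was in sub-cluster 7, led by Egfl6, the Wnt inhibitor Wif1 and Igfbp2, at 379 CPM (350 to 410). It held 169 SM22-SmoM2 and 2 control fibroblasts. Only sub-clusters 1 and 2 were filled with 50 cells or more by both libraries, and these are called shared below. Over them the log2 ratio of Twist2 was -0.68 and that of Twist1 -0.01. The Twist1 value joins opposite signs, 0.21 (0.00 to 0.42) in sub-cluster 1 and -0.39 (-0.74 to -0.05) in sub-cluster 2. Of the SM22-SmoM2 cells of sub-clusters 1 and 2, 10.6% and 13.3% held a Ptch1 UMI, against 58.3% of all SM22-SmoM2 fibroblasts. Twist1 was highest in sub-cluster 12, described below, at 292 CPM (236 to 357).

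Prrx1 (chr1:163245119-163313710, minus strand) was at 291 CPM (282 to 300) in the control and 317 CPM (307 to 327) in the SM22-SmoM2 fibroblasts (log2 ratio 0.12), and at -0.40 over the sub-clusters shared by the libraries. A UMI of Prrx1 was seen in 87.9% of control and 88.8% of SM22-SmoM2 fibroblasts, the widest detection of the 10 there. It was seen in 93.0% and 80.9% of muscle cells and in 7.08% and 9.52% of Schwann cells. Its level between sub-clusters ranged from 32.6 CPM in sub-cluster 10 to 639 CPM in sub-cluster 12. In muscle cells Prrx1 was lower in the SM22-SmoM2 library (log2 ratio -0.57, -0.79 to -0.36, 272 control and 94 SM22-SmoM2 cells).

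Prrx2 (chr2:30834972-30881251, plus strand) was at 137 CPM (131 to 144) in the control and 94.2 CPM (88.9 to 99.7) in the SM22-SmoM2 fibroblasts, a log2 ratio of -0.54 (-0.65 to -0.44) that lies just under 1.5-fold. In the sub-clusters shared by the libraries the ratio was -0.02. Prrx2 was at 131 and 146 CPM in sub-cluster 1 and at 139 and 118 CPM in sub-cluster 2, so the library values overlap there. Its lowest level was 48.0 CPM in the SM22-SmoM2 cells of sub-cluster 4 (80.2 CPM in control), the lowest control level was 56.4 CPM in sub-cluster 10, and the highest, 209 CPM, was in the cycling control sub-cluster 11.

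Alx4 (chr2:93642384-93681339, plus strand) was the member with the most unequal counts. Control fibroblasts held 1 UMI (0.0708 CPM) and SM22-SmoM2 fibroblasts 52 (4.17 CPM, 3.11 to 5.46), a log2 ratio of 5.88 with an interval of 3.34 to 11.21. Outside the fibroblasts no class held more than 2 Alx4 UMIs in a library, although with all cells cut into 30 clusters in place of 20 the muscle class of the SM22-SmoM2 library held 16 Alx4 UMIs (18.4 CPM) and the fibroblasts 36. Alx4 overlaps the gene Ext2 on the other strand over 20312 bases, and the sources used here do not state how strand was used in counting. Ext2 was at 96.3 CPM in the control and 75.2 CPM in the SM22-SmoM2 fibroblasts.

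Sub-cluster 12 carried the highest Alx4 level. It held 48 SM22-SmoM2 and 0 control fibroblasts and had 12 of 12 dermal papilla markers raised, so it is called papilla-like. The dermal papilla is the cluster of fibroblasts at the hair base that instructs the follicle, and the leading genes here included the Wnt agonists Rspo3 and Rspo1 and the papilla phosphatase gene Alpl. Among clusters of all cells, the one also led by Rspo3, Rspo1 and Alpl held 54 SM22-SmoM2 and 0 control cells. It passed 2 markers of a class, under the minimum of 3, and was put with the fibroblasts for its 12 raised papilla markers. The class of the 48 cells of sub-cluster 12 depended on the clustering. With 30 clusters 46 of the 48 fell in the muscle class, and in every other run tried at least 47 stayed fibroblasts. These 48 cells had a median of 4703.5 UMIs. They were at 49.1 CPM of Alx4 (16 UMIs, 28.1 to 79.8), against 2.96 CPM in the other SM22-SmoM2 fibroblasts (log2 ratio 4.05, 3.10 to 4.94). They held 30.8% of the Alx4 UMIs (18.7 to 45.1) while making up 4.37% of the fibroblasts. A further 19 of the 52 UMIs lay in sub-cluster 6 (10.4 CPM), led by Penk, Wif1 and Tnmd. Without the papilla-like cells Alx4 was at 2.96 CPM, a log2 ratio to control of 5.39 (2.82 to 10.73), and its 37 UMIs fall under the minimum of 50.

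The papilla-like cells stood out in other members too. Prrx1 was at 639 CPM against 308 CPM in the other SM22-SmoM2 fibroblasts (log2 ratio 1.05, 0.84 to 1.25) and Twist1 at 292 against 108 CPM (1.43, 1.11 to 1.73). Twist2 was lower, at 92.1 against 146 CPM (-0.67, -1.24 to -0.15), and so was Meox2, at 15.4 against 44.8 CPM (-1.55, -3.18 to -0.32). Compared only with other fibroblasts that held Ptch1 UMIs, the papilla-like cells with Ptch1 UMIs gave log2 ratios of 1.59 for Twist1, 1.01 for Prrx1 and 3.50 for Alx4. Fibroblast markers summed to 9947 CPM in these cells against 46479 CPM over all SM22-SmoM2 fibroblasts, and muscle markers to 347 against 66.8 CPM. Whether those levels bear on the factor values was not tested.

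Msx2 (chr13:53466884-53473074, minus strand) was almost absent from the fibroblasts, with 0 UMIs in control (which allows up to 0.213 CPM) and 4 in SM22-SmoM2. Of those 4, 3 lay in the papilla-like cells. Muscle cells held 9 Msx2 UMIs in control and 1 in SM22-SmoM2. Its relative Msx1 (chr5:37820485-37824583, minus strand) was at 10.1 CPM (8.47 to 11.9) in the control and 1.92 CPM (1.23 to 2.86) in the SM22-SmoM2 fibroblasts, a log2 ratio of -2.39 (-3.08 to -1.76) on 142 and 24 UMIs. Sub-cluster 3, led by Nov, the elastin gene Eln and Sfrp2, held 62 of the 142 control UMIs (43.7%). It was made of 254 control and 3 SM22-SmoM2 cells. In the shared sub-clusters the log2 ratio was -1.0. Levels were 8.26 CPM in the control and 2.18 CPM in the SM22-SmoM2 cells of sub-cluster 2, and 2.22 and 2.66 CPM in sub-cluster 1. The SM22-SmoM2 values there rest on 3 and 4 UMIs. Msx1 levels in endothelial cells were 17.6 and 12.2 CPM, above those of fibroblasts.

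En1 (chr1:120602418-120607992, plus strand) had the largest library difference of the members above 50 CPM in fibroblasts. It was at 53.4 CPM (49.7 to 57.4) in the control and 126 CPM (119 to 132) in the SM22-SmoM2 fibroblasts, a log2 ratio of 1.23 (1.11 to 1.36). A UMI was seen in 45.0% and 56.2% of the fibroblasts. En1 was higher in SM22-SmoM2 cells in all 4 sub-clusters to which both libraries gave 30 cells or more. The values were 66.6 and 141 CPM in sub-cluster 1 (1.08, 0.81 to 1.35), 58.2 and 98.8 CPM in sub-cluster 2 (0.76, 0.42 to 1.10), and 93.5 and 146 CPM in the cycling sub-cluster 8 (0.64, 0.16 to 1.15). In sub-cluster 4 they were 31.5 and 45.6 CPM, with an interval that includes 0 (-0.37 to 1.58). In female cells alone, 48 of them in the SM22-SmoM2 library, the ratio was 0.11. In muscle cells the levels were 50.2 and 56.1 CPM and their intervals overlap.

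The stretch before the En1 start site is shown because of this difference. Beside it are those of Msx1, which was lower between libraries, and Meox2, which differed by Ptch1 UMIs over all SM22-SmoM2 fibroblasts. Each is the 250 bases before the start site from RefSeq (GRCm38.p6), 5′ to 3′ on the gene's strand, with E-boxes (CANNTG, read on both strands), the kind of site Twist proteins bind, in capitals.
En1, chr1:120602237-120602486, plus strand: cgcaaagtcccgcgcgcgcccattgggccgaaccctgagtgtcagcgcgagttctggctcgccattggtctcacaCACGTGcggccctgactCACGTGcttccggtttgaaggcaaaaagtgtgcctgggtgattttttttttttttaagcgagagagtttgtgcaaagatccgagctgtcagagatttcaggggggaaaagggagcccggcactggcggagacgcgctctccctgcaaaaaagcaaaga
Msx1, chr5:37824586-37824835, minus strand: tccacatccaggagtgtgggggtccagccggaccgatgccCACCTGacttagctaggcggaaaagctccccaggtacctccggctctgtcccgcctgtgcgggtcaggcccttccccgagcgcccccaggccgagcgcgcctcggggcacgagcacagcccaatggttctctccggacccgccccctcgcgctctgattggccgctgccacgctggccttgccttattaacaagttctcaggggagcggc
Meox2, chr12:37108290-37108539, plus strand: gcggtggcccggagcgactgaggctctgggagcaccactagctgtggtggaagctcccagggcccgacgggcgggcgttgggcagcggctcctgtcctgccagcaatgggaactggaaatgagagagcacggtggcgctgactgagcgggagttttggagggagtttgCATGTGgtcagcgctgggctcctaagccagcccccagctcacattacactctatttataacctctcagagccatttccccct

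The RefSeq start site of En1 lies inside the gene as placed above from GENCODE, so the end of the En1 stretch runs into that gene. The En1 stretch holds 2 E-boxes and the Msx1 and Meox2 stretches 1 each. Among all 32851 promoters of the same length, 66.2% hold at least 1. The letters GACCACCCA, a binding sequence of the GLI proteins that act at the end of the Hedgehog pathway, were searched on both strands and are in none of the 8 members with a sequence, against 0.225% of all promoters. The homeodomain letters TAATTA are in the Prrx1 and Msx2 stretches and in 4.84% of all promoters. Meox1 and Alx4 had no entry. These matches describe the letters of a short window and say nothing of binding in these cells.

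Meox1 (chr11:101877510-101894374, minus strand) was at 31.6 CPM (28.7 to 34.7) in the control and 9.06 CPM (7.46 to 10.9) in the SM22-SmoM2 fibroblasts, a log2 ratio of -1.80 (-2.11 to -1.50). A small group of control cells carried most of it. Sub-cluster 10, led by the matrix protein gene Thbs4, Cst6 and the transferrin gene Trf, held 60 control and 3 SM22-SmoM2 cells and was at 421 CPM of Meox1 (374 to 473). Those 60 cells made up 5.50% of the control fibroblasts and held 284 of the 446 Meox1 UMIs (63.7%, 59.0 to 68.1), and 85% of them had a Meox1 UMI. The same cells had the lowest Prrx1 level of any group, 32.6 CPM (20.4 to 49.4). Their 9 fibroblast markers were all above 10 CPM, with a sum of 56171 CPM, and endothelial markers summed to 96.4 CPM. Without sub-cluster 10 Meox1 was at 12.1 CPM in the control and 8.51 CPM in the SM22-SmoM2, a log2 ratio of -0.50 (-0.87 to -0.14), which is under 1.5-fold, and in female cells alone the ratio was 1.05. The antisense gene Gm11551 overlaps Meox1 over 4970 bases, and use of strand in counting is not stated.

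Meox2 (chr12:37108540-37179534, plus strand) was at 45.5 CPM (42.0 to 49.1) in the control and 44.1 CPM (40.5 to 47.9) in the SM22-SmoM2 fibroblasts (log2 ratio -0.05, -0.21 to 0.12). It too was concentrated. Sub-cluster 4, led by Mest, the tight junction gene Cldn1, Sfrp5 and Ptch1 itself, was at 298 CPM (244 to 361) in 36 control cells and 179 CPM (161 to 198) in 176 SM22-SmoM2 cells. In sub-cluster 1 it was at 8.60 CPM in the control and 2.66 CPM in the SM22-SmoM2. Within both of these sub-clusters the SM22-SmoM2 level was the lower one (log2 ratio -0.74, -1.06 to -0.41, in sub-cluster 4), as in sub-cluster 2 (24.1 and 10.9 CPM), whereas in the cycling sub-cluster 8 the values were 14.5 and 18.1 CPM (0.32, -0.98 to 1.80). Sub-cluster 4 held 3.30% of control and 16.0% of SM22-SmoM2 fibroblasts, and over sub-clusters with 50 cells of each library, which leaves it out, the log2 ratio was -1.22. The ratio over all fibroblasts was -1.15 with no mitochondrial filter, where 30 of the 36 control and 161 of the 176 SM22-SmoM2 cells of sub-cluster 4 were left out as a mixed class, and -0.48 with 30 clusters, where 29 and 89 of them were. In the SM22-SmoM2 cells of sub-cluster 4 all 9 fibroblast markers were at 10 CPM or more, with a sum of 38694 CPM. Endothelial markers summed to 159 CPM there, against 63.1 CPM over all SM22-SmoM2 fibroblasts. Whether this bears on the Meox2 level was not tested.

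**Figure D3:**
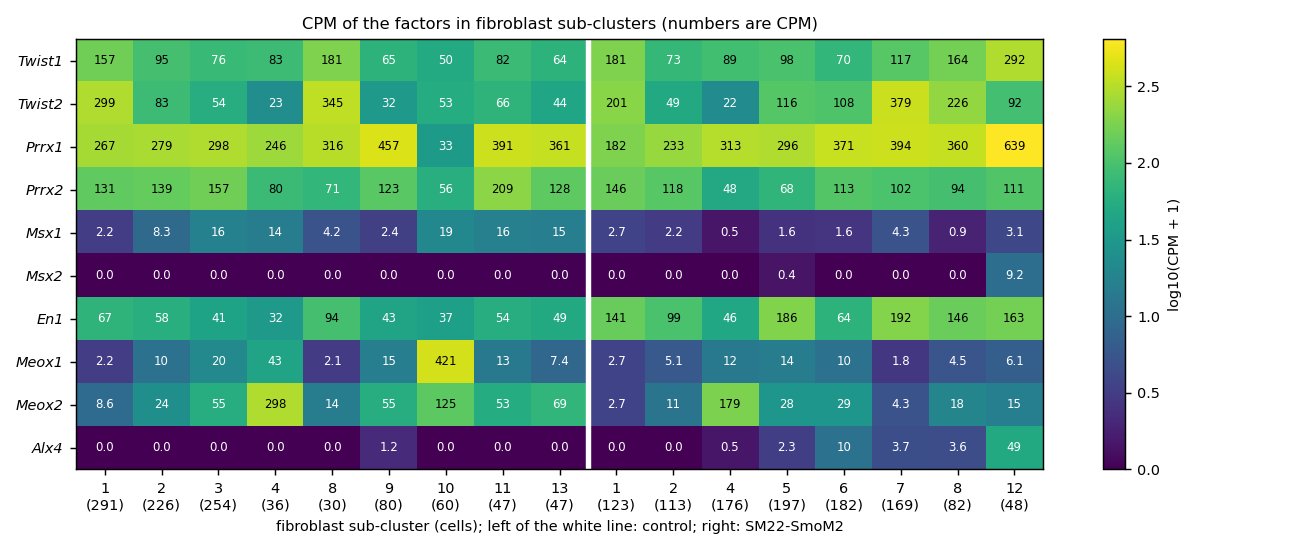
CPM of the 10 factors (rows, printed numbers and colour as log10 of CPM + 1) in fibroblast sub-clusters with at least 30 cells (columns, cells in parentheses), control left and SM22-SmoM2 right. Meox1 reaches 421 CPM in control sub-cluster 10, Meox2 298 CPM in control sub-cluster 4, and Alx4 49.1 CPM in sub-cluster 12.

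The split of fibroblasts by Ptch1 asked how the factors go with Hedgehog response inside 1 library. In the SM22-SmoM2 library 640 fibroblasts had a Ptch1 UMI and 458 had none, at median depths of 11298 and 10218 UMIs. A cell without a UMI is not a cell without the transcript, and Gli1 was at 16.5 CPM in the cells without Ptch1 UMIs of this library against 4.34 CPM in those of control. With Ptch1 UMIs, 3 of the 8 members counted were at least 1.5-fold higher, where 11.8% of all 10042 genes were, and 0 were at least 1.5-fold lower, where 5.32% were. The median log2 ratio was 0.13 over these members and 0.13 over all genes.

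Meox2 was at 62.7 CPM with and 14.7 CPM without Ptch1 UMIs in the SM22-SmoM2 library (log2 ratio 2.09, 1.73 to 2.47). Without sub-cluster 4 it was at 24.0 and 8.60 CPM (1.48, 0.96 to 2.03), and inside sub-cluster 4 alone it was at 180 and 168 CPM, with an interval that includes 0 (-0.44 to 0.68). Thinning every cell to 2500 UMIs before the split gave 0.70. Alx4 was at 6.02 and 1.24 CPM (2.28, 1.05 to 3.80), but at a ratio of 0.19 where Gli1 UMIs took the place of Ptch1. Meox1 was at 11.5 and 5.17 CPM (1.16, 0.50 to 1.86), and at 0.13 with Gli1 UMIs.

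En1 and Prrx2 lay the other way. En1 was at 110 CPM with and 150 CPM without Ptch1 UMIs (-0.45, -0.59 to -0.30), although it was, with Alx4, one of the members higher in the SM22-SmoM2 library. In cells without Ptch1 UMIs, En1 was at 53.6 CPM in the control and 150 CPM in the SM22-SmoM2 cells (1.49, 1.33 to 1.64), and in cells with them at 51.8 and 110 CPM (1.09, 0.75 to 1.45). Prrx2 was at 79.8 and 117 CPM (-0.55, -0.72 to -0.38) by Ptch1 in the SM22-SmoM2 library. Without sub-cluster 4 En1 was at 132 and 153 CPM (-0.21, -0.36 to -0.06) and Prrx2 at 90.3 and 120 CPM (-0.40, -0.58 to -0.23). Twist1 was at 113 and 114 CPM over all these fibroblasts. Thinning every cell to 2500 UMIs before the split gave log2 ratios of -0.35 for Twist1 and -0.28 for Prrx2.

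The number of Ptch1 UMIs graded these values. From 0 to 1, 2 to 3 and 4 or more Ptch1 UMIs (458, 204, 271 and 165 SM22-SmoM2 cells), Meox2 was at 14.7, 47.2, 49.9 and 93.4 CPM. Alx4 was at 1.24, 2.21, 5.69 and 10.1 CPM. En1 went in the opposite order, at 150, 124, 109 and 97.6 CPM, and so did Prrx2, at 117, 87.8, 79.6 and 72.5 CPM. The cells with 4 or more Ptch1 UMIs were also the deepest, with a median of 13713 UMIs, and the part of depth in this order was not tested beyond the thinned split. Sub-clusters differed too: in SM22-SmoM2 cells of sub-cluster 4, 86.9% had a Ptch1 UMI and En1 was at 45.6 CPM. In those of sub-cluster 7, 65.7% had one and En1 was at 192 CPM. The part of sub-clusters in the order was not tested.

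**Figure D4:**
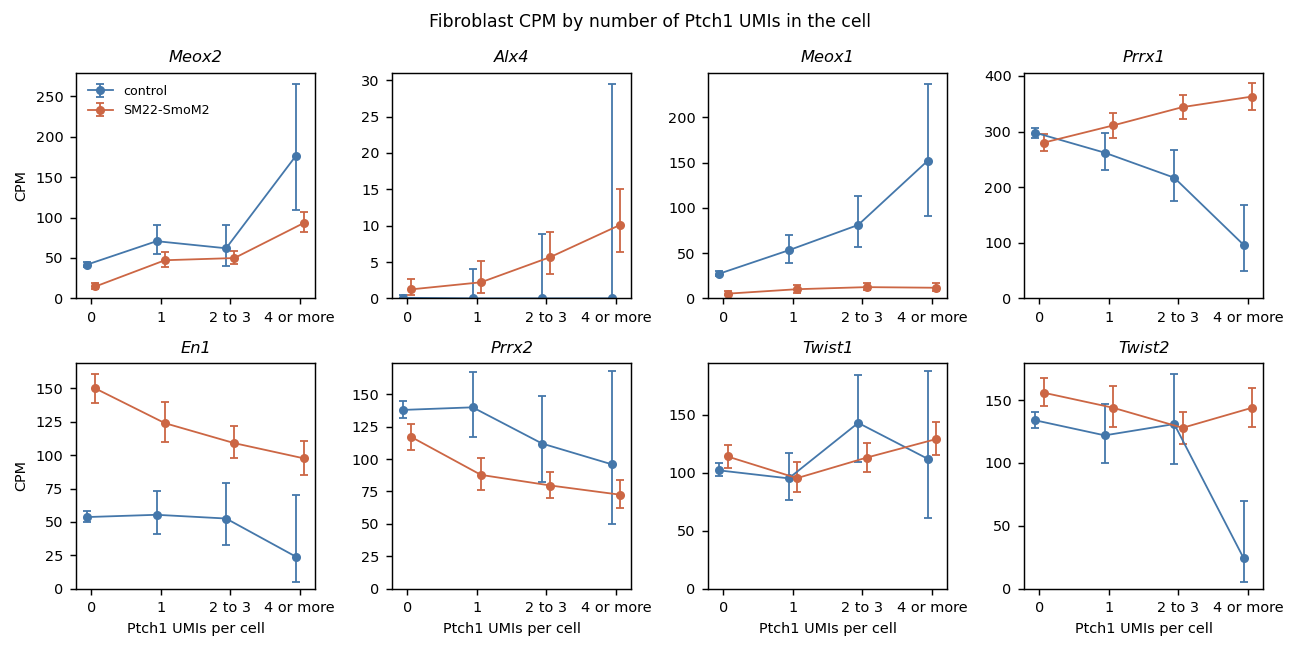
CPM (linear axis from 0) of 8 factors in fibroblasts with 0, 1, 2 to 3 and 4 or more Ptch1 UMIs in the control (blue) and SM22-SmoM2 (orange) libraries, with 95% counting intervals. In SM22-SmoM2 cells Meox2 goes from 14.7 to 93.4 CPM and En1 from 150 to 97.6 CPM, and the last control group holds only 7 cells.

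In the control library 108 fibroblasts had a Ptch1 UMI and 982 had none, at medians of 12888 and 12462 UMIs. There 2 of the 8 members counted were at least 1.5-fold higher with Ptch1 UMIs, where 8.93% of all genes were, and 0 were lower, where 8.70% were. Meox1 was at 69.7 CPM with and 27.2 CPM without Ptch1 UMIs (1.36, 1.02 to 1.68). Without sub-cluster 10, of whose cells 28.3% had a Ptch1 UMI, it was at 16.4 and 11.6 CPM. The interval of that log2 ratio includes 0 (-0.26 to 1.18). After thinning to 2500 UMIs, which left 33 control cells with a Ptch1 UMI, the Meox1 ratio was -0.67. Meox2 was at 77.3 and 41.8 CPM (0.89, 0.58 to 1.18), and at 52.0 and 37.8 CPM (0.46) without sub-cluster 4. Prrx1 was at 235 and 298 CPM (-0.34, -0.51 to -0.18), opposite to the SM22-SmoM2 library, where it was at 340 and 280 CPM (0.28, 0.18 to 0.38). After the same thinning the Prrx1 ratio was 0.14 in the control and 0.26 in the SM22-SmoM2 cells. Thinning also changes which cells count as having Ptch1, and these values have no interval. Whether the direction depends on depth was not tested. En1 was at 51.8 and 53.6 CPM.

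Across the 17 groups of sub-cluster and library with at least 30 cells, some pairs of factors had opposed profiles. Pearson's r of log2(CPM + 10) was -0.81 for Twist2 and Meox2, -0.78 for En1 and Meox2 and -0.79 for Prrx1 and Meox1. It was 0.69 for Twist2 and En1 and 0.64 for Twist1 and Twist2. Twist1 and En1 were at 0.67, and Meox1 and Meox2 at 0.65. The highest r of all pairs, 0.91 for Msx2 and Alx4, rests on few UMIs, 3 and 16 in sub-cluster 12. With Prrx2 r ranged from -0.40 (Meox1) to 0.37 (Prrx1). The groups share libraries and the r is a description. The pair Prrx1 and Meox1 includes sub-cluster 10, where both were at their extremes.

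In single cells thinned to 2500 UMIs, Twist2 and Meox2 UMIs were found together in 9 control fibroblasts, where independent detection would give 25.1, and in 5 SM22-SmoM2 fibroblasts, where it would give 21.4. Twist1 and Twist2 were found together in 62 control cells (48.9 if independent) and 71 SM22-SmoM2 cells (53.6). Twist2 and En1 were found together in 74 SM22-SmoM2 cells (54.7 if independent). At full depth Twist2 and Meox2 met in 139 control cells (184 if independent) and 73 SM22-SmoM2 cells (119). They thus met less often than independent detection would give, yet 43.7% of control and 30.4% of SM22-SmoM2 fibroblasts with Meox2 also held Twist2. The part of sub-clusters in these counts was not tested.

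Of 5615 genes, the profile most like that of En1 over the 17 groups was that of Prdm1, which encodes the transcriptional repressor Blimp1 (r = 0.92), followed by the non-muscle myosin gene Myh9 (0.91) and Pank3 (0.84). For Twist1 these were Esyt1 (0.88), Wnt5a, a Wnt ligand (0.87), and Tmem132c (0.86). For Twist2 they were Megf6 (0.87), the smooth muscle actin gene Actg2 (0.85) and Por (0.84). Prrx1 was nearest to Cacnb3 (0.86), Ccdc80 (0.83) and Palld (0.82), and Prrx2 to Hebp1 (0.82), Hdac7 (0.75) and 4930523C07Rik (0.75). Meox2 was nearest to the zinc finger gene Bnc2 (0.90), Acer3 (0.89) and the latent TGF-beta binding protein gene Ltbp4 (0.89). Meox1 was nearest to Golga7 (0.94), Cst6 (0.92) and Trf (0.91), of which Cst6 and Trf led sub-cluster 10.

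The pools also differed in the sex of their cells, read from Xist and Y-linked UMIs. Male cells were 645 and female cells 220 of the control fibroblasts, and 815 and 48 of the SM22-SmoM2 fibroblasts. A further 45 control and 28 SM22-SmoM2 fibroblasts held both Xist and Y-linked UMIs. These, and cells with neither, were placed in no sex. The library ratios of several members were unlike in the sexes. In male cells Twist2 was at 97.4 CPM in the control and 152 CPM in the SM22-SmoM2 cells (log2 ratio 0.64, 0.52 to 0.76), and in female cells at 255 and 73.4 CPM (-1.80, -2.34 to -1.30). En1 was at 49.1 and 125 CPM in male cells (1.35, 1.19 to 1.51) and at 61.9 and 66.9 CPM in the female cells (0.11, -0.49 to 0.67).

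Meox1 was at 38.4 and 8.24 CPM in male cells (-2.22) and at 9.40 and 19.4 CPM in female cells (1.05, -0.24 to 2.20), and sub-cluster 10 held 47 male and 0 female control cells. Meox2 was at 49.8 and 44.5 CPM in male cells and at 25.5 and 64.8 CPM in female cells (1.35, 0.67 to 1.99). Prrx2 was lower in SM22-SmoM2 cells of both sexes (-0.63 in each). Of the 48 female SM22-SmoM2 fibroblasts 23 lay in sub-cluster 6, where En1 was at 63.8 CPM, while 42.3% of the female control fibroblasts lay in sub-cluster 1. The part of sex, of the single animals in each pool and of sub-cluster in these values was not tested.

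**Figure D5:**
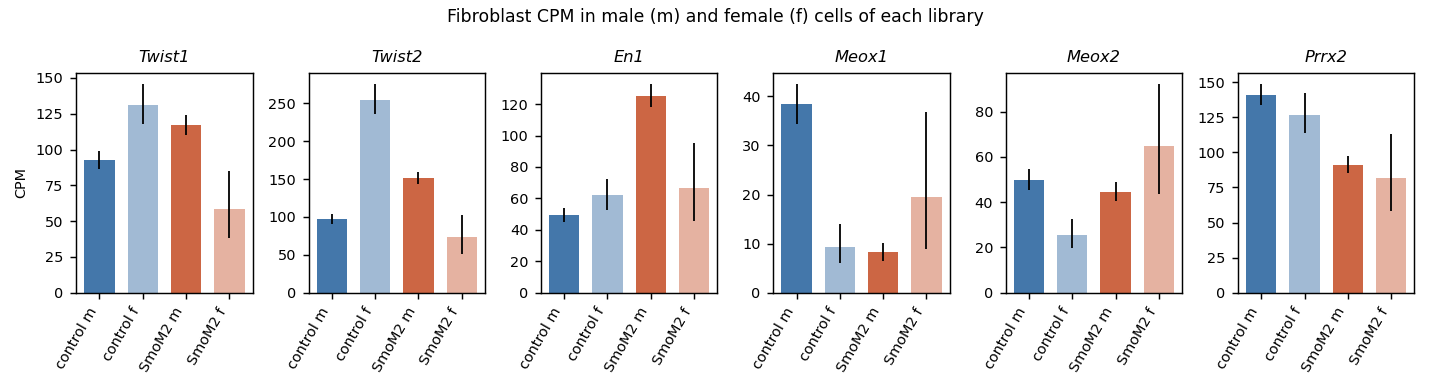
CPM (linear axis from 0) of 6 factors in male (m, full colour) and female (f, pale) fibroblasts of the control (blue) and SM22-SmoM2 (orange) libraries, with 95% counting intervals. En1 is at 125 CPM in male SM22-SmoM2 cells and 66.9 CPM in the 48 female ones, and Twist2 at 255 CPM in female control cells.

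Partner and neighbour factors were taken as lists. Of the 7 E proteins and Id factors, 3 were at least 1.5-fold higher in SM22-SmoM2 fibroblasts, where 11.8% of all genes were, and 1 was lower, where 12.3% were. The Id proteins hold E proteins off DNA, and Id1 was at 109 CPM in the control and 324 CPM in the SM22-SmoM2 cells (log2 ratio 1.57, 1.48 to 1.65), Id3 at 400 and 917 CPM (1.20) and Id4 at 9.42 and 27.6 CPM (1.55). Tcf4, an E protein, was at 273 and 172 CPM (-0.67, -0.74 to -0.59). The rest of the list lay within 1.5-fold: Id2 at 274 and 290 CPM (0.08), and the E proteins Tcf3 (76.7 and 86.2 CPM, 0.17) and Tcf12 (59.2 and 49.8 CPM, -0.25). Of the 4 mesenchymal zinc finger repressors, Snai1 was higher (33.8 and 53.1 CPM, 0.65), while Snai2 (23.9 and 13.5 CPM, -0.82) and Zeb1 (55.0 and 33.0 CPM, -0.74) were lower.

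Of the other homeobox factors 19 of 34 were counted, with 3 higher and 3 lower and a median log2 ratio of 0.02, beside shares of 11.8% higher and 12.3% lower over all genes. Barx2 had the largest ratio, at 34.1 CPM in the control and 4.01 CPM in the SM22-SmoM2 cells (-3.09, -3.54 to -2.67). Zfhx3 was at 41.7 and 18.7 CPM, Meis1 at 19.0 and 9.54 CPM, and Irx2 at 5.60 and 11.5 CPM. Of the other dermal factors 18 of 24 were counted, with 3 higher and 3 lower and a median of 0.07, beside the same shares over all genes. Osr1 was at 79.7 and 22.3 CPM (-1.84, -2.03 to -1.65), Foxd1 at 5.88 and 2.64 CPM, Foxc2 at 2.83 and 9.14 CPM, and Nr2f2 at 38.4 and 71.4 CPM (0.90, 0.74 to 1.05).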

How the data were processed

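The deposited counts are UMI counts per gene and cell, which the authors made with the 10x 3′ v2 kit and Cell Ranger on mm10 (GRCm38). Versions are not given in the sources used here. The barcode list holds more entries than either matrix, so cells were taken by matrix column. Cells with over 10% mitochondrial UMIs were left out and doublets were not removed. Depth was 30103855 UMIs in control and 17814222 in SM22-SmoM2. After scaling each cell to 10000 UMIs, cells were clustered by k-means (scikit-learn 1.9.0, K = 20, 20 principal components, 2000 variable genes), leaving out 33 genes including the members, then K = 15 within fibroblasts. Classes were named from fixed markers, by thresholds set after clusters had been seen, and mixed sub-clusters (17 control and 2 SM22-SmoM2 cells) were left out. A class needed at least 3 of its markers, and a cluster short of that with more than 6 papilla markers raised was named fibroblast. UMIs were summed per group. CPM has exact Poisson intervals, ratios exact conditional intervals and shares Clopper-Pearson intervals (95%), a count of 0 allows 3 UMIs, and cells are not replicates, so no test was run. A member counts as higher or lower at 1.5-fold with at least 50 UMIs over both groups. The genes named are the 10 members, Ptch1, Gli1 and Tagln, up to 4 genes per list of other factors past 1.5-fold, and the 3 genes (at least 500 UMIs) most like each member with at least 200 UMIs. Id2, Tcf3 and Tcf12, the rest of their list, are named too. Genes that lead a sub-cluster and overlapping genes were named after their values were seen. The members and lists were chosen with earlier results of these data known. Gene positions are from GENCODE and 27645 of 27998 identifiers matched. Promoter sequences were found for 8 of 10 members. Alternatives were other mitochondrial limits, K = 12, K = 30, Leiden clustering, Scrublet, per-cell means, thinning, sex, sub-clusters, count minimums and other Hedgehog splits.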

Additional observations from a re-analysis of the deposited data

Results flagged for a closer look

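Prrx1 was lower in SM22-SmoM2 than in control muscle cells (log2 ratio -0.57) and slightly higher in fibroblasts (0.12). It was lower in control fibroblasts with Ptch1 UMIs (-0.34) and higher in SM22-SmoM2 fibroblasts with them (0.28). With every cell thinned to 2500 UMIs before the split both were positive (0.14 and 0.26), with 33 control cells left that held a Ptch1 UMI. Twist1 (-1.17) and Twist2 (-1.80) were lower in SM22-SmoM2 than in control fibroblasts among female cells and higher among male cells (0.33 and 0.64), with 48 female SM22-SmoM2 cells. Each pair was picked out because its 2 values have opposite signs with counting intervals that exclude 0. The differences were not tested, since each condition is 1 library.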

How the results depend on the processing

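The count of members at least 1.5-fold higher between libraries was 1 instead of 2 with K = 30, with thinning to 2500 UMIs, in female cells alone and without cycling sub-clusters. It was also 1 in sub-clusters with 50 cells of each library, without the papilla-like sub-cluster, and at a minimum of 200 UMIs. Alx4, with 53 UMIs over both libraries, can drop below the minimum. In female cells the 1 was Meox2 (log2 ratio 1.35), while En1 was at 0.11 and Alx4 held 9 UMIs. The count lower was 1 with thinning, without sub-cluster 10 and at 200 UMIs. It was 3 instead of 2 with no mitochondrial filter, in male cells and in female cells. In female cells the 3 were Twist1 (-1.17), Twist2 (-1.80) and Prrx2 (-0.63), and neither Msx1 nor Meox1 was among them. Over sub-clusters 1 and 2, with 50 cells of each library, Twist2 and Meox2 (-1.22) were past 1.5-fold lower. Msx1 and Meox1 fell under the minimum of 50 UMIs there. Msx1 held 8 and 23 UMIs in control and 4 and 3 in SM22-SmoM2 cells, and Meox1 8 and 29, and 4 and 7. By Ptch1 in SM22-SmoM2, 1 member was higher with the Gli1 split and with thinning, and 1 was lower with at least 2 Ptch1 UMIs. By Ptch1 in control, 1 was higher with thinning, without sub-cluster 4 and without sub-cluster 10, and 1 was lower with at least 2 Ptch1 UMIs, the Gli1 split, thinning, male cells alone and without sub-cluster 10. The Meox1 ratio had the other sign between libraries in female cells (1.05), with an interval that includes 0 (-0.24 to 2.20). It also had the other sign by Ptch1 in thinned control cells (-0.67), where 33 cells held a Ptch1 UMI and no interval is given. The cause was not tested. Leaving out sub-clusters 4 or 10, and the papilla-like one between libraries, was chosen after seeing the data. The En1 ratio between libraries stayed positive under the 14 alternatives tried for it (0.11 to 1.38), and the Msx1 ratio negative under its 13 (-2.52 to -1.0). The -1.0 is from sub-clusters 1 and 2, where SM22-SmoM2 cells held 4 and 3 Msx1 UMIs. No paired analysis was possible because each group is 1 library. Depth limits Msx2, Alx4 and Msx1 most, with 4, 53 and 166 fibroblast UMIs, and the barcodes shared by the libraries could not be counted.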
